A study of Mus musculus with 10 samples.

Results

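The glycolysis and hypoxia genes described here are 37 mouse genes, chosen by name for their role. They cover glucose uptake, the enzymes from hexokinase to pyruvate kinase, lactate and pyruvate handling, the hypoxia-inducible factor (HIF) with its oxygen sensors, and genes linked to HIF. All 37 had a row among the 52550 genes counted. Summed over the 10 libraries, 35 of them reached 10 counts, as did 20269 genes in all. The remaining 2, Hif1a and P4ha2, are accounted for with the oxygen-sensing genes and the HIF-linked genes.

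The cells were HSPC-enriched bone marrow cells of wild-type C57BL/6 mice that carried the MLL-AF9 fusion oncogene and the tetR-KRAB repressor. MLL-AF9-i139 cells also carried pCW-miR-139, from which doxycycline (DOX) induces miR-139, and 3 of their clones were sequenced without DOX and with DOX at 5 µg/mL. The labels give 48 h of DOX for clones 1 and 2 and 72 h for clone 3, and no time for the untreated cultures. In the control, MLL-AF9-ieGFP, DOX induces eGFP, and its 4 libraries are 48 h and 72 h cultures of 1 clone with and without DOX. All groups thus share MLL-AF9 and tetR-KRAB. Each clone was grown from a picked colony, so construct and clone cannot be told apart between the constructs, nor can clone 3 and its longer treatment.

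Total counts ranged from 35133308 to 47089725 per library, and the members took 0.972% to 1.27% of them. Of 10 myeloid progenitor markers 9 reached 10 counts, and the list's summed level was 2399 to 5292 CPM (counts relative to a scaled library size), whereas the erythroid, T cell and fibroblast lists each summed to under 3 CPM in every library. Mir139 was listed at 0 in all 10 libraries, so these counts do not measure the induced miRNA. Eif4g2, which the study used as a miR-139 target, was at 540 and 515 CPM in clones 1 and 2 with DOX and at 822 CPM in clone 3, against 1216 to 1380.0 CPM in the untreated clones. The library of clone 3 with DOX stood apart from the treated clones 1 and 2 (chi-square per degree of freedom 112 and 96.9 against clones 1 and 2, and 24.8 between those clones). Results that turn on clone 3 are therefore also given without it.

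Glycolysis splits glucose into pyruvate, with the phosphorylation of glucose by hexokinase as its first step and the transfer of a phosphate by pyruvate kinase as its last. Lactate dehydrogenase turns pyruvate into lactate, which monocarboxylate transporters carry across the cell membrane. When oxygen is low, prolyl hydroxylases no longer mark HIF for degradation, and HIF, a dimer of an oxygen-regulated alpha subunit and ARNT, binds DNA at sites with the core ACGTG or GCGTG and switches on many of these genes. Myeloid leukemia cells are known for a high use of glucose.

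The induced hairpin gives a pair of mature miRNAs, shown 5′ to 3′ with the seed (bases 2 to 8) in capitals because a target is recognized mainly through it. Their sequences are those of RefSeq (GRCm38.p6), at chr7:101475382-101475403 and chr7:101475418-101475439 on the plus strand, inside the gene Pde2a.
mmu-miR-139-5p: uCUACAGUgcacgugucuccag
mmu-miR-139-3p: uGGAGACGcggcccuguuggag

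The 7 letters that pair with the miR-139-5p seed, ACTGTAG, occurred in the longest annotated 3′ UTR of 5 of 35 members, or 14.3%, against 12.5% of 14433 genes with at least 10 counts and a 3′ UTR. The letters for miR-139-3p, CGTCTCC, occurred in 1 of 35 members (2.86%), Pfkl, against 3.74% of those genes. The share of members with a match was thus close to that of all genes. The windows around the miR-139-5p matches are shown on the transcribed strand in GRCm38, with the 7 letters in capitals, because their genes went in both directions with DOX. They lie at chr6:82727166-82727194 (Hk2), chr2:71902964-71902992 and chr2:71903024-71903052 (Pdk1), chr4:119136728-119136756 (Slc2a1), chr6:122727844-122727872 (Slc2a3) and chr10:77987782-77987810 (Pfkl).
Hk2: tcccgatattcACTGTAGagtttgatacc
Pdk1, first match: ccacactaataACTGTAGccaggtgtctt
Pdk1, second match: ggcaggcttgcACTGTAGatagcctagtg
Slc2a1: cctatctccacACTGTAGtcttcaccttg
Slc2a3: ctattaatgttACTGTAGtttctgttttg
Pfkl: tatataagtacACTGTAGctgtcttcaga

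The match in Hk2 and the second match in Pdk1 are followed by an A. Hk2 and Pdk1 had a log2 difference below 0 in all 3 clones, at −0.42 ± 0.11 and −0.24 ± 0.13 (SE). Slc2a1, Slc2a3 and Pfkl were at 0.28 ± 0.16, 0.26 ± 0.21 and 0.28 ± 0.22. With all 3 clones and the clone as a block, Hk2 passed and the other 4 genes did not. A match is a run of letters, and no binding was measured.

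The core letters of the HIF site, searched as ACGTG on both strands, lay between 250 bases before and 50 bases after a start site in 28 of 49 member promoters (57.1%). They occurred in 23.6% of the 16146 promoters of genes with at least 10 counts and in 19.6% of all 32851 promoters in the RefSeq table (GRCm38.p6). CACGTG, a palindrome that also holds these letters and is bound by other factors, occurred in 12.2% of the member promoters and in 9.09% and 7.15% of the same 2 sets. A match was found for 25 of the 35 members in that table. Several members are textbook HIF targets and were listed for that role, so this share is a description. The windows of members that the results turn on are shown on the promoter strand with the match in capitals, as ACGTG or as its reverse complement CACGT. They lie at chr10:62340400-62340424 (Hk1), chr6:82774492-82774516 (Hk2), chr9:59657225-59657249 (Pkm), chr3:104638674-104638698 (Slc16a1), chr7:138909599-138909623 (Bnip3) and chr10:59323270-59323294 (P4ha1).
Hk1: cgcgctccttACGTGgggaacgtgc
Hk2: tgagcacatcCACGTcactgtccgg
Pkm: gcattctagtCACGTccgcggactc
Slc16a1: gcgagctgcgACGTGactggtcggt
Bnip3: cacgcgccgcACGTGccacacgctc
P4ha1: tgacagagcgCACGTagcgagggct

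The match of Bnip3 is part of CACGTG and those of the other 5 genes are not, although Slc16a1 also holds a CACGTG further upstream. Hk1 and Slc16a1, which moved in opposite directions with DOX, both hold the letters, and Gpi1, which moved with Hk1, held none in its window. The promoters of Hk1 and Pkm that lie further upstream held none either, and Bnip3l had no promoter in the RefSeq table. The 33 tested members in the promoter table were compared in the model that blocks on clone. The 23 with a match had a median log2 difference of 0.07 and the 10 without one had 0.24. Of the 23, 6 passed, and of the 10, 1 did, where 12.4% of all genes tested passed. Whether the letters bear on the response to DOX was not tested.

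The comparison of DOX with no DOX in MLL-AF9-i139 asked how the members differed once miR-139 was induced. Hk1, Gpi1, Pkm, Bnip3, Bnip3l and P4ha1 were higher with DOX in all 3 clones, and Hk2 and Slc16a1 were lower in all 3. These 8 members passed the test once the clone was used as a block, 6 up and 2 down, where 12.4% of all 19223 genes tested passed (7.05% up and 5.33% down). Without the block, 0 members passed in edgeR and 12 genes in all did (0.0624%). At an unadjusted p under 0.05 that model held 7 members and 20.6% of all genes. In such bulk samples, fewer cells of a type and less RNA per cell cannot be told apart. The test was the quasi-likelihood test of edgeR, p-values were adjusted over all genes tested by the Benjamini-Hochberg procedure, and a gene was called at an adjusted p under 0.05.

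The 8 calls were the same 8 with DESeq2 and the clone as a block, and DESeq2 without a block called 3 of them, Hk1, Hk2 and Bnip3l, where 8.09% of genes passed. In all 8 the difference was smallest in clone 3, as it was in 26 of all 35 members. The share over all genes was not counted. Without clone 3, and without the block, 9 members passed, where 21.7% of genes did: the same 8 and Arnt. Fits that held the block and left out 1 clone were added after the data were seen. With the block and without clone 1 or clone 2, 1 and 2 members passed, Hk1 in both cases and Bnip3l without clone 2. Fewer genes in all passed in these fits than with the block and all clones. Their counts are given in the last section, and their shares over all genes were not calculated. With the block and without clone 3, 23 of 34 members passed, 16 up and 7 down, where 43.4% of all genes did. Beside the 8 and Arnt these were Slc2a1, Slc2a3, Hk3, Pfkl, Pfkfb4, Aldoa, Tpi1, Gapdh and Vegfa, all higher, and Pfkp, Ldha, Pdk1, Ero1l and Mif, all lower.

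Over the 35 members the median log2 difference was 0.19 without the block, against 0.01 over all genes tested, and 12 of 35 were below 0, against 48.8% of all genes. Signs were the same in 3 of 3 clones for 27 members (18 up and 9 down), against 53.8% of all genes. The treated and untreated libraries did not overlap for 7 members that were higher with DOX and 4 that were lower, where 12.0% and 12.8% of all genes did so. Among the 7, Gpi1 and Eno2 were near ties, and Hk3 was separate by a narrow margin. The highest untreated and lowest treated values were 1350.9 and 1351.2 CPM for Gpi1, and 0.1267 and 0.1270 CPM for Eno2. For Hk3 they were 191.7 and 193.0 CPM. Among the 4, Mif was close too, with a lowest untreated value of 216.3 and a highest treated value of 214.2 CPM.

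**Figure D1:**
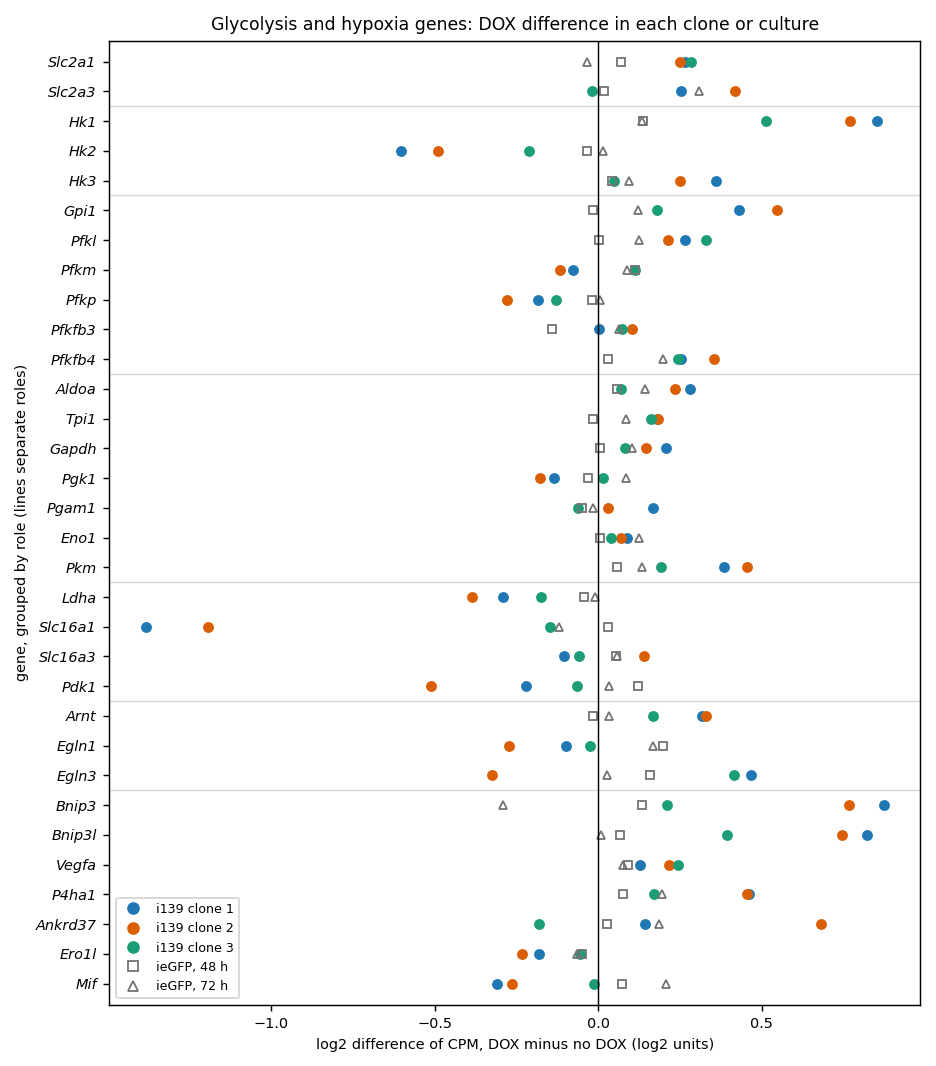
Log2 difference of CPM between DOX and no DOX (horizontal axis, log2 units) for the 32 members with a mean of at least 1 CPM, grouped by role from glucose uptake at the top to HIF-linked genes at the bottom. Filled points are the 3 MLL-AF9-i139 clones and open symbols the 48 h and 72 h cultures of the MLL-AF9-ieGFP clone; the widest spread is that of Slc16a1, at −1.38, −1.19 and −0.15 in clones 1, 2 and 3.

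Of the hexokinases, the enzymes that trap glucose in the cell as glucose 6-phosphate, Hk1 and Hk2 differed with DOX in opposite directions. Hk1 (chr10:62268855-62379908, minus strand), the isoform most tissues use, was at 147, 161 and 177 CPM in the untreated clones 1, 2 and 3 and at 266, 274 and 252 CPM with DOX. Every treated clone was above every untreated one, including clone 3. The mean was 162 ± 14.8 CPM (SD, n = 3) without and 264 ± 11.1 CPM (n = 3) with DOX, a log2 difference of 0.72 ± 0.10 (SE), with an edgeR adjusted p of 0.0596 without and 0.0179 with the clone as a block.

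Hk2 (chr6:82725025-82774454, minus strand), the isoform linked to high glucose use in tumors, was at 246, 255 and 242 CPM without DOX and at 162, 182 and 209 CPM with DOX. The treated clones were all below the untreated ones, and clone 3 was nearest to them. The log2 difference was −0.42 ± 0.11 (SE), with an edgeR adjusted p of 0.120 without the block and 0.0360 with it. Hk3, an isoform found mainly in myeloid cells, was at 150.3, 186 and 192 CPM without DOX and at 193, 221 and 198 CPM with DOX. Its groups were separate by a narrow margin, and its log2 difference of 0.23 ± 0.12 did not pass either test (adjusted p of edgeR 0.322, and 0.130 with the block).

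CPM were also divided by the kilobases of all annotated exons of a gene merged (8532 bases for Hk1 and 5969 for Hk2). Merged exons can be longer than 1 transcript, so the level of Hk1 against Hk2 depends on the annotation. On this scale, and in plain CPM, Hk2 was above Hk1 in every untreated clone. With DOX, Hk1 was above Hk2 in plain CPM in every clone. Hk1 was at 18.9 ± 1.73 CPM per kilobase (SD, n = 3) without DOX and at 30.9 ± 1.30 with DOX, and Hk2 was at 41.5 ± 1.16 and 30.8 ± 4.0. The share of Hk2 in the sum of both was 70.4%, 69.5% and 66.2% in the untreated clones 1, 2 and 3 and 46.5%, 48.7% and 54.2% with DOX. The sum itself was 58.4, 61.6 and 61.3 CPM per kilobase without DOX and 58.2, 62.6 and 64.6 with DOX, and these ranges overlapped while the shares did not. Both the size of the shares and the sum depend on the exon lengths used. In MLL-AF9-ieGFP Hk2 made up 71.0% and 69.7% of the sum in the untreated cultures at 48 h and 72 h, and 68.5% and 68.0% in the treated ones.

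**Figure D2:**
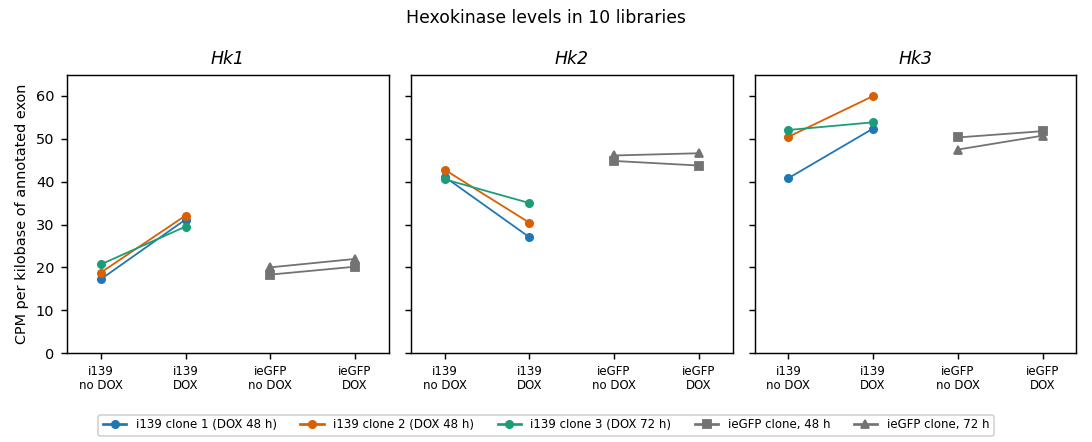
Levels of Hk1, Hk2 and Hk3 in CPM per kilobase of annotated exon (vertical axis, starting at 0) in the 10 libraries, with lines joining the untreated and treated library of a clone or culture. On this scale, which depends on the annotated exon lengths, Hk1 and Hk2 lie near the same level with DOX in MLL-AF9-i139, at 30.9 and 30.8 on average. They lie apart in all other groups. In plain CPM Hk1 was above Hk2 in every treated MLL-AF9-i139 clone.

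**Figure D3:**
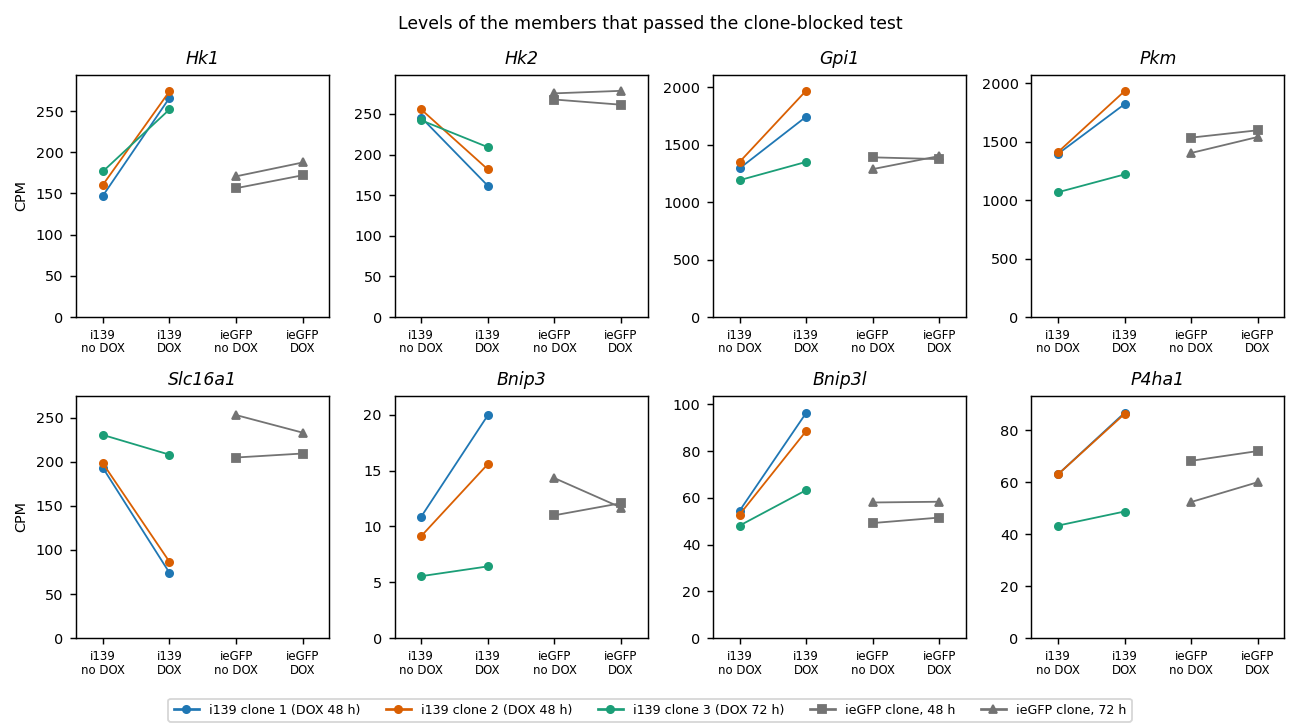
Levels in CPM (vertical axes, each starting at 0) of the 8 members that passed the test with the clone as a block. Colored lines join the untreated and treated library of each MLL-AF9-i139 clone, gray lines those of the MLL-AF9-ieGFP clone at 48 h (squares) and 72 h (triangles); clone 3 has the flattest colored line in each panel.

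Glucose uptake differed less. Slc2a1 (GLUT1), the main glucose carrier of blood cells, was at 42.2, 38.9 and 30.5 CPM without DOX and at 50.8, 46.4 and 37.1 CPM with DOX. Each clone was higher with DOX by a similar amount (log2 differences 0.27, 0.25 and 0.28), and the groups overlapped because clone 3 was low in both states. The edgeR adjusted p was 0.370 without and 0.0627 with the block. Slc2a3 (GLUT3), a carrier of high affinity, had log2 differences of 0.25, 0.42 and −0.02 in clones 1, 2 and 3, and its groups overlapped.

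Among the 6 members around the phosphofructokinase step, 1 passed the test with the block. Gpi1 (chr7:34201330-34230336, minus strand), which turns glucose 6-phosphate into fructose 6-phosphate, was at 1295, 1351 and 1192 CPM without DOX and at 1745, 1972 and 1351 CPM with DOX. The treated clone 3 was at the level of the untreated clone 2, and the other treated clones were well above. On the log2 scale the difference was 0.41 ± 0.15 (SE), with an edgeR adjusted p of 0.179 without and 0.0406 with the block.

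Pfkl, the liver-type phosphofructokinase subunit, was higher in all 3 clones with log2 differences of 0.27, 0.21 and 0.33 (edgeR adjusted p of 0.518, and 0.0559 with the block). Pfkp, the platelet-type subunit, had differences of −0.18, −0.28 and −0.13, and Pfkm, the muscle-type subunit, stayed between −0.12 and 0.11. Neither passed with all 3 clones, with or without the block. Pfkfb4, whose product sets the level of the phosphofructokinase activator fructose 2,6-bisphosphate, was at 13.6, 14.4 and 15.4 CPM without and 16.2, 18.4 and 18.3 CPM with DOX. Its groups did not overlap, and its log2 difference was 0.30 ± 0.13 (edgeR adjusted p of 0.239, and 0.0957 with the block). Pfkfb3, an enzyme of the same kind, differed by 0.07 ± 0.11.

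Of the 9 members from aldolase to pyruvate kinase, 1 passed the test with the block. Pkm (chr9:59656368-59679375, plus strand), which makes pyruvate in the last step, was at 1396, 1410.4 and 1067 CPM without DOX and at 1820.4, 1932 and 1219.7 CPM with DOX. Clones 1 and 2 with DOX exceeded all others, and clone 3 was the lowest in each state. Its log2 difference was 0.37 ± 0.19 (SE), with an edgeR adjusted p of 0.308 without the block and 0.0410 with it. Counts per gene do not separate the M1 and M2 splice forms of Pkm.

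Aldoa, Tpi1, Gapdh and Eno1, which carry out the aldolase, triose phosphate isomerase, glyceraldehyde phosphate dehydrogenase and enolase steps, were higher in all 3 clones by small amounts. Their log2 differences were 0.22 ± 0.19, 0.19 ± 0.16, 0.16 ± 0.16 and 0.08 ± 0.11 (SE), and none passed with all 3 clones, with or without the block. Pgk1 and Pgam1, the kinase and mutase between them, were at −0.09 ± 0.13 and 0.06 ± 0.10. Of the 9 members from aldolase to pyruvate kinase 7 had a difference above 0, and the differences of Pgk1 and Pgam1 were within their SE.

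The second isoforms were near the limit of detection. In MLL-AF9-i139, Aldoc had 18 to 38 counts per library, and Eno2 had 5, 1 and 5 counts in the untreated clones and 11, 8 and 5 with DOX. Ldhb, the heart-type lactate dehydrogenase subunit, had 3, 4 and 5 counts without and 1, 1 and 4 with DOX. No difference was detectable for these 3 members at this depth.

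On the lactate side the log2 difference was below 0 for 4 of 5 members, with a median of −0.27. Slc16a1 (MCT1; chr3:104638668-104658462, plus strand), a transporter that moves lactate and pyruvate with a proton, was at 193, 198 and 231 CPM without DOX and at 74.1, 86.6 and 208 CPM with DOX. Clones 1 and 2 with DOX were well under the untreated range, and clone 3 was inside it. The log2 difference was −0.74 ± 0.35 (SE; edgeR adjusted p of 0.272) without the block and −0.90 ± 0.22 (adjusted p of 0.0436) with it. Without clone 3 and without the block it was −1.27, with an edgeR adjusted p of 0.000335.

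Slc16a3 (MCT4), the transporter linked to lactate export from cells with high glycolysis, was at 161, 130.4 and 137 CPM without and 150.2, 144 and 132 CPM with DOX. Its groups overlapped and its log2 difference was 0.00 ± 0.11. Per kilobase of exon, Slc16a1 made up 59.0%, 64.6% and 66.9% of the sum of both transporters without DOX and 37.2%, 42.0% and 65.5% with DOX. This share was lower in the treated clones 1 and 2 and hardly differed in clone 3.

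Ldha, the main lactate dehydrogenase subunit here, was at 1036, 1070.0 and 907 CPM without DOX and at 847, 819 and 803 CPM with DOX. All treated clones were below all untreated ones. On the log2 scale the difference was −0.27 ± 0.10 (SE), with an edgeR adjusted p of 0.185 without and 0.0610 with the block. Pdk1, a kinase that holds pyruvate back from the mitochondrial dehydrogenase, was at 55.3, 52.9 and 50.5 CPM without and 47.5, 37.1 and 48.3 CPM with DOX. Its groups did not overlap either, and it did not pass (adjusted p of 0.310, and 0.150 with the block). Pkm and Ldha, which make and use pyruvate, therefore had differences of opposite sign in all 3 clones.

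Hif1a, the oxygen-regulated alpha subunit, was listed at 0 in all 10 libraries. Its body (chr12:73901375-73947530) lies wholly inside annotated genes on both strands (Gm15283 and Gm49321). Of the 1258 protein-coding genes that lie wholly inside another gene, 96.7% were listed at 0, against 24.9% of the 11686 genes that overlap none. No statement on the level of Hif1a can therefore be made from these counts. Other members that share much of their body with another gene are Ankrd37 (73.4%), Aldoa (55.9%), Bnip3 (24.4%), Slc16a1 (21.6%) and Hk1 (20.8%, with its antisense gene Hk1os).

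Arnt, the partner that HIF alpha subunits need to bind DNA, was at 77.3, 75.4 and 79.0 CPM without DOX and at 96.4, 94.7 and 88.8 CPM with DOX. The groups did not overlap. Its log2 difference was 0.28 ± 0.09 (SE), with an edgeR adjusted p of 0.144 without the block, 0.0647 with it and 0.0262 without clone 3. Egln1 and Egln3, the oxygen-sensing prolyl hydroxylases PHD2 and PHD3, had log2 differences of −0.10 ± 0.48 and 0.27 ± 0.25. The sign of Egln3 differed between clones, at 0.47, −0.33 and 0.42 in clones 1, 2 and 3.

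Of the 7 HIF-linked members with enough counts, 3 passed the test with the block. Bnip3l (NIX; chr14:66985239-67008877, minus strand), a mitochondrial protein that marks mitochondria for autophagy, was at 54.5, 52.9 and 48.2 CPM without DOX and at 96.4, 88.7 and 63.3 CPM with DOX. All treated clones lay above all untreated ones, clone 3 least. The log2 difference was 0.69 ± 0.16 (SE), with an edgeR adjusted p of 0.105 without and 0.0238 with the block.

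Its relative Bnip3 (chr7:138890836-138909519, minus strand), with the same function, was expressed at a lower level, 10.9, 9.14 and 5.55 CPM without DOX and 20.0, 15.6 and 6.43 CPM with DOX. Clone 3 was the lowest in both states, and its treated library was below the untreated clones 1 and 2. On the log2 scale the difference was 0.73 ± 0.41 (SE), with an edgeR adjusted p of 0.345 without the block and 0.0436 with it. P4ha1 (chr10:59323296-59373304, plus strand), a subunit of the enzyme that hydroxylates proline in collagen, was at 63.1, 63.1 and 43.3 CPM without and 86.8, 86.4 and 48.8 CPM with DOX. Clones 1 and 2 with DOX were above the untreated range and clone 3 was inside it. Its log2 difference was 0.40 ± 0.24 (SE; edgeR adjusted p of 0.379, and 0.0469 with the block).

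Vegfa, the growth factor of blood vessels, was higher in all 3 clones by 0.13, 0.22 and 0.24 on the log2 scale and did not pass (edgeR adjusted p of 0.437, and 0.116 with the block). Ero1l, which acts in forming disulfide bonds in the endoplasmic reticulum, was at −0.14 ± 0.11. Mif, a cytokine, was at 235, 245 and 216 CPM without and 190.0, 204 and 214 CPM with DOX, and these groups did not overlap (log2 difference −0.18 ± 0.09, edgeR adjusted p of 0.309). Ankrd37, a compact HIF target, was at 1.27 to 2.52 CPM with wide scatter, and P4ha2 had 4 counts in the 10 libraries together. The HIF-linked members thus held differences of either sign, and those that passed with the block were all higher.

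Other genes of these pathways were counted from 7 lists of 92 genes, 83 of which were tested. With the clone as a block 18 passed, 15 up and 3 down, and without it 0 did. Over all genes 7.05% passed up and 5.33% down in that model. The list of gluconeogenesis and glycogen genes had 5 of 11 up and 0 down, with a median log2 difference of 0.37 (all genes 0.01). Pygl, the glycogen phosphorylase of the liver and leukocytes, was at 166, 157 and 85.1 CPM without and 447, 404 and 129 CPM with DOX (log2 difference 1.15, adjusted p of edgeR with the block 0.0205). Gys1, a glycogen synthase, Pgm2, Pck2 and G6pc3 also rose in this test, by 0.65, 0.44, 0.66 and 0.37. Pck2 was also higher with DOX in MLL-AF9-ieGFP, at 21.2 against 18.2 CPM at 48 h and 39.6 against 24.0 CPM at 72 h, log2 differences of 0.22 and 0.72 (adjusted p of edgeR 1). Clone 3 was again the smallest of the 3 differences for Pygl, at 0.60 against 1.43 and 1.36.

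Of the genes of pyruvate entry to mitochondria, Dlat, a subunit of pyruvate dehydrogenase, and Pdp2, a phosphatase that switches the complex on, fell by 0.57 and 0.72 with the block, and Pdk3 rose by 0.38. Among 21 other hypoxia-responsive genes 5 rose and 1 fell, with a median of 0.13. Ddit4, an inhibitor of mTORC1 signalling, rose by 1.49, with log2 differences of 2.10, 2.06 and 0.17 in clones 1, 2 and 3. Car12, a carbonic anhydrase, fell by 1.18, with differences of −1.66, −1.48 and −0.42. Of the other HIF pathway factors 1 of 10 passed, Vhl, the factor that targets HIF for degradation, which rose by 0.49. The pentose phosphate list had 1 of 6 (Pgls, up), the other glycolytic isoforms 2 of 16 (Pgam2 and Slc2a6, both up) and the cytosolic NADH shuttles 0 of 8.

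Markers of mature neutrophils summed to 167 to 247 CPM in the untreated MLL-AF9-i139 clones and to 263 to 425 CPM with DOX. In MLL-AF9-ieGFP the sum was already 325 and 405 CPM without DOX, and 314 and 434 CPM with it. In MLL-AF9-i139 with the block, 7 of 9 tested markers were above 0 and 2 below (median log2 difference 0.41). Of them 3 passed, all up (Cxcr2, Ngp and Csf3r). Monocyte and macrophage markers summed to 359.96 to 442 CPM without and 287 to 434 CPM with DOX, and most of that sum was Ly6c2. With the block 6 of 7 tested markers of this list were above 0 (median log2 difference 0.59), and 1 passed, Csf1r, which rose. The progenitor list summed to 2399 to 3549 CPM without and 3216 to 5292 CPM with DOX, and most of that sum was Mpo and Elane. Of its 9 tested markers 5 were above 0 and 4 below (median 0.02), and 3 rose (Mpo, Fcgr3 and Cd34) and 1 fell (Hoxa9). B cell markers summed to 9.05 to 11.7 CPM without and 2.67 to 5.81 CPM with DOX (1 of 3 fell), and mast cell and basophil markers to 9.94 to 12.1 and 14.9 to 16.6 CPM (1 of 3 rose). Megakaryocyte markers summed to 1.48 to 2.64 and 2.01 to 3.72 CPM (1 of 3 rose). The part that a shift in cell state played in the members' values was not tested.

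In the MLL-AF9-ieGFP clone, DOX and eGFP gave a check of the inducer itself. None of the 35 members passed (0 of 20269 genes, 0%; 259 genes, or 1.28%, and 0 members had an unadjusted p under 0.05), and the same was true with the culture time as a block (0 genes passed, and 389 genes, or 1.92%, and 0 members had an unadjusted p under 0.05). DESeq2 called 1 gene, which was no member. The median log2 difference of the members was 0.06. Among members with a mean of at least 1 CPM, the 5 with the largest differences were Egln1 (0.18 ± 0.52, SE), Slc2a3 (0.17 ± 0.23), Mif (0.14 ± 0.10), Hk1 (0.14 ± 0.11) and P4ha1 (0.13 ± 0.27).

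Hk1 in this clone was at 156 and 171 CPM without DOX, at 48 h and 72 h, and at 172 and 188 CPM with DOX. Hk2 was at 268 and 275 CPM without and 261 and 278 CPM with DOX, and Slc16a1 at 205 and 253 CPM without and 209 and 233 CPM with DOX. These treated and untreated values overlapped for Hk2 and Slc16a1, and for Hk1 they were separate by a narrow margin. With 2 libraries a group from 1 clone, the spread was estimated together with the MLL-AF9-i139 libraries.

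The interaction, which tested whether the members' response to DOX differed between the constructs, called 0 members and 1 gene in all (0.00493%). With the block it called 38 genes (0.187%) and 0 members. Among members with a mean of at least 1 CPM, the largest interactions were those of Bnip3 (0.80 ± 0.56, SE), Slc16a1 (−0.70 ± 0.49), Bnip3l (0.64 ± 0.23), Hk1 (0.57 ± 0.14) and Hk2 (−0.42 ± 0.15), with edgeR adjusted p-values of 0.663, 0.658, 0.527, 0.527 and 0.527. With the block these became 0.146, 0.163, 0.0971, 0.0865 and 0.132. Without clone 3, and without the block, 6 members passed, where 10.2% of all genes did, these 5 among them, with edgeR adjusted p-values of 0.0394 for Bnip3, 0.00138 for Slc16a1, 0.00991 for Bnip3l, 0.00626 for Hk1 and 0.0234 for Hk2. With all 3 clones a difference between the constructs was therefore not established for any member.

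Before DOX, the values of most members were lower in the MLL-AF9-i139 clones than in the MLL-AF9-ieGFP clone, where construct and clone cannot be told apart. The summed level of the members was 9777 to 11447 CPM in the 3 untreated MLL-AF9-i139 clones. It was 11860.3 and 12058 CPM in the untreated MLL-AF9-ieGFP cultures, and the groups did not overlap. No member passed in untreated MLL-AF9-i139 against untreated MLL-AF9-ieGFP (9 genes in all, 0.0444%), 2 had an unadjusted p under 0.05 (2.48% of all genes), and 29 of 35 had a log2 difference below 0 (47.0% of all genes), with a median of −0.11 (all genes 0.01). Among members with a mean of at least 1 CPM, the largest differences were those of Egln1 (0.64 ± 0.48, SE), Bnip3 (−0.57 ± 0.39), Pfkl (−0.40 ± 0.22), Slc2a1 (−0.33 ± 0.16) and Egln3 (−0.32 ± 0.27). Of these, Bnip3, Pfkl and Slc2a1 were lowest in clone 3 of MLL-AF9-i139, and Egln1 was highest in it.

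The 3 MLL-AF9-i139 clones differed from each other in 5 of 35 members, where 2.19% of all genes passed, in a model that also held DOX. The replicates of a clone in this model were its untreated and treated libraries. Egln1 (PHD2; chr8:124908587-124949324, minus strand) was at 17.7, 29.5 and 53.0 CPM in the untreated clones 1, 2 and 3 and at 16.5, 24.4 and 52.0 CPM with DOX. The order of the clones was the same in both states, and no pair of clones overlapped. Clone 3 exceeded clone 1 by 1.62 on the log2 scale (edgeR adjusted p of 0.00291 for the clones). The MLL-AF9-ieGFP clone was at 19.7 and 23.1 CPM without and 22.6 and 26.0 CPM with DOX, within the range of clones 1 and 2.

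Bnip3, P4ha1 and Pfkl were lower in clone 3 than in clone 1, by −1.30, −0.68 and −0.65 on the log2 scale (edgeR adjusted p of 0.0436, 0.0467 and 0.0292 for the clones). Pfkp was higher in clone 3 by 0.51 (adjusted p of 0.0431). Pfkl was at 103, 104 and 64.2 CPM in the untreated clones and at 123, 121 and 80.6 CPM with DOX, and Pfkp at 165, 165 and 231 CPM without and 145, 136 and 211 CPM with DOX. In clone 3, then, the liver-type subunit was lower and the platelet-type subunit higher than in clones 1 and 2, in both states.

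Of the 15 enzymes from glucose phosphate isomerase to pyruvate kinase, 10 were lowest in clone 3, as were 19 of all 35 members. The share over all genes was not counted. Aldoa, Pkm, Tpi1 and Gapdh were lower in clone 3 than in clone 2 by −0.53, −0.53, −0.41 and −0.44 on the log2 scale and did not pass (edgeR adjusted p of 0.0686, 0.0774, 0.0885 and 0.110). Hk1, Hk2, Ldha and Arnt, in contrast, differed by at most 0.18 between clones. The medians over members and over all genes of the widest difference between 2 clones were 0.39 and 0.43, so the members as a group did not stand out. Of the 5 calls, Egln1 and Bnip3 passed without clone 3 too, and those of P4ha1, Pfkl and Pfkp did not.

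**Figure D4:**
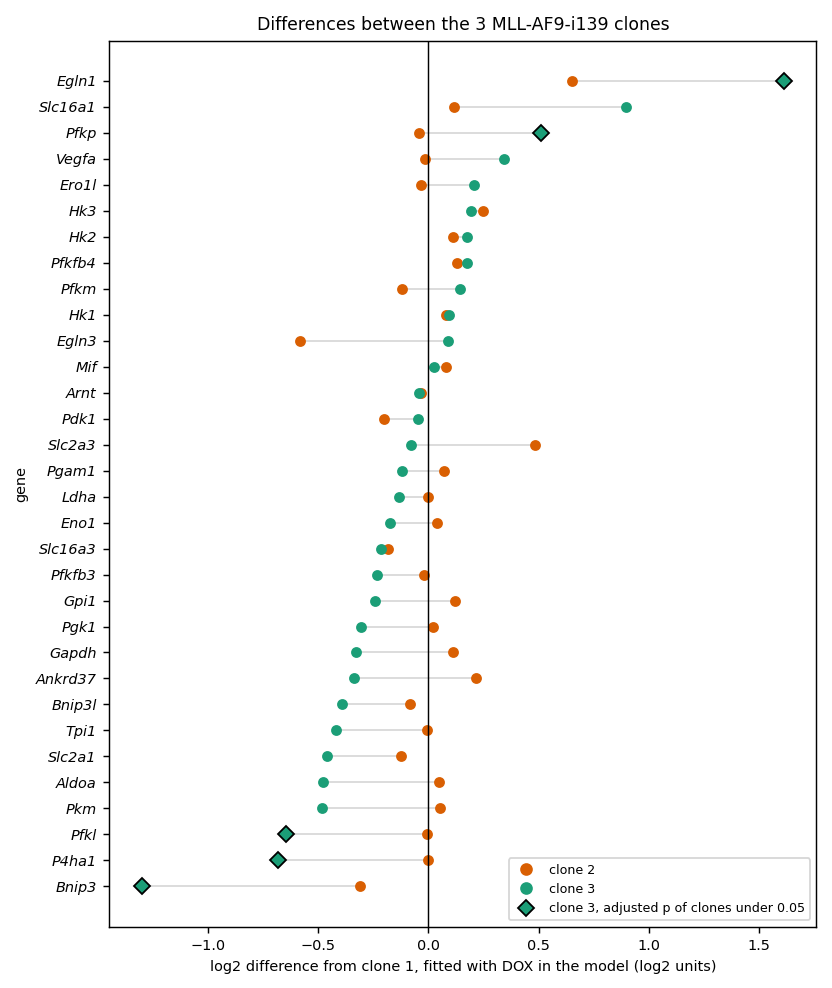
Fitted log2 difference from clone 1 (horizontal axis, log2 units) of clone 2 and clone 3 for the 32 members with a mean of at least 1 CPM, ordered by the value of clone 3; black-edged diamonds mark the 5 members whose clones differed at an adjusted p under 0.05. Clone 3 spans from −1.30 for Bnip3 to 1.62 for Egln1, and clone 2 from −0.58 for Egln3 to 0.65 for Egln1.

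The MLL-AF9-ieGFP clone was sequenced at both times in both DOX states, which shows how far the members move between cultures of 1 clone. At 72 h against 48 h, 8 of 34 members passed, 7 up and 1 down, where 14.1% of 17757 genes passed (6.19% up and 7.95% down). Egln3 was at 37.9 CPM at 48 h and 51.6 CPM at 72 h without DOX, and at 42.3 and 52.6 CPM with DOX (log2 difference 0.38 ± 0.07, SE, edgeR adjusted p of 3.47e-06). Both 72 h cultures were above both 48 h cultures. P4ha1 was at 68.3 and 52.4 CPM without and 72.0 and 60.1 CPM with DOX, and fell by 0.32 ± 0.07 (adjusted p of 5.35e-05).

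Pdk1, Slc16a1, Slc16a3, Bnip3l, Vegfa and Ldha rose by 0.25, 0.23, 0.23, 0.21, 0.19 and 0.16. Both lactate transporters, lactate dehydrogenase and the pyruvate dehydrogenase kinase were therefore higher at 72 h, in both DOX states. Hk1 and Hk2 differed by 0.13 ± 0.06 and 0.07 ± 0.05 and did not pass. DESeq2 called 4 members and the 4 fits without 1 library called 0 to 5, so the calls rest on few libraries. Each time point is 1 culture per DOX state, and time and culture cannot be told apart.

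**Figure D5:**
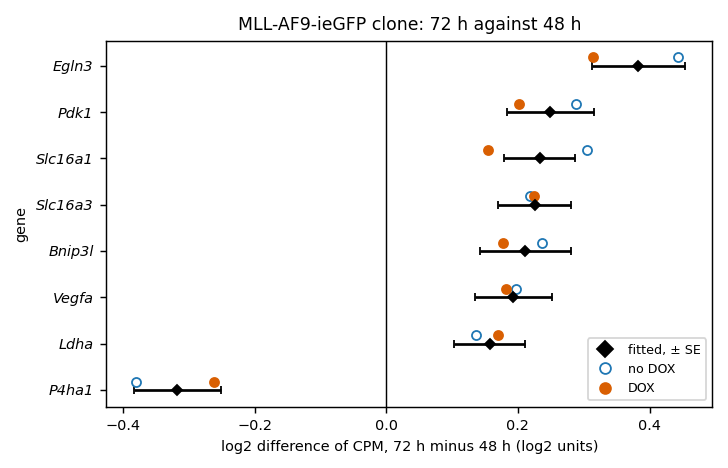
Log2 difference of CPM between 72 h and 48 h (horizontal axis, log2 units) in the MLL-AF9-ieGFP clone for the 8 members that passed. Diamonds and bars are the fitted value ± SE, and circles the differences without DOX (open) and with DOX (filled), which lie on the same side of 0 for each gene.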

How the data were processed

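RNA depleted of ribosomal RNA was sequenced from the 10 libraries. Per the submitters' processing notes and the study's methods, the authors aligned reads with STAR 2.5.3e to GRCm38 and made the deposited counts per gene with featureCounts 1.6.0. The 2 deposited tables held the same values (0 differed), and 14 columns of other samples were not used. Symbols matched 52403 of 52550 genes. Members and gene lists were chosen with earlier results of these data known. Genes with under 10 counts over the libraries of a fit were left out. CPM used TMM-scaled library sizes, and log2 CPM a prior count of 2. Tests were edgeR 4.0.16 (R 4.3.3, quasi-likelihood, Benjamini-Hochberg, threshold 0.05), with DESeq2 1.42.0 among the alternatives. The edgeR tests were also run on simulated counts. The changes planted there were larger than the members' DOX differences, so differences of the members' size were not covered. At these depths 3 counts were 0.0637 to 0.0854 CPM. Replicates differed beyond sampling noise (chi-square per degree of freedom 13.5 to 112), so each library counted as 1 sample. Without the block, p-values for DOX and construct measure the spread between clones or cultures. With the block they measure how the DOX difference varied between clones or cultures. The tests of clone and of time used the treated and untreated libraries of the same clone as replicates, so they do not measure a spread between independent clones.

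The labels' clone numbers pair the MLL-AF9-i139 libraries. Deviations from the group means correlated at 0.381, 0.288 and 0.414 for libraries of the same clone and at −0.0436 to −0.315 for other pairs, over 19223 genes. All members were named for DOX in MLL-AF9-i139. In the other comparisons members that passed were named, or the 5 with the largest differences at a mean of at least 1 CPM.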

Additional observations from a re-analysis of the deposited data

How the results depend on the processing

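For DOX in MLL-AF9-i139, 0 members and 12 genes passed. With the clone as a replicate block 8 members and 2381 genes passed, with DESeq2 3 and 1556, with DESeq2 and the block 8 and 3012, without a filter on low counts 2 and 562, and with all 10 libraries in the fit 3 and 1234. With at least 10 counts in at least 3 libraries 6 genes passed. Leaving out 1 clone gave 0 to 9 members and 0 to 3981 genes, and with the block 1, 2 and 23 members and 324, 580 and 7974 genes without clones 1, 2 and 3, the highest counts being those without clone 3. The block changed no member's call in MLL-AF9-ieGFP or in the interaction.

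Members near 0 changed sign. Slc16a3 was at −0.0022 with DESeq2 and with RLE size factors, −0.012 with all 10 libraries, and −0.071 with the block and without clone 2 (−0.072 to 0.042 over fits without 1 clone). Pfkm was at 0.0016 without a filter, and 0.029 with the block and without clone 2 (−0.077 to 0.033 over fits without 1 clone, with 0.0084 without clone 1). Aldoc was at 0.0088 with the block, 0.029 with DESeq2 and the block, and 0.33 without clone 3, with the block too (−0.25 to 0.33 over fits without 1 clone). Pgam1 was at −0.015 with the block and without clone 1 (−0.012 to 0.12 over fits without 1 clone). The cause was not tested.

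For the MLL-AF9-ieGFP DOX comparison 1 gene passed with DESeq2 and 1 without a filter. For the interaction, 83 genes passed with DESeq2, 71 without a filter, 38 with the block and 0 with the stricter filter, and leaving out 1 clone or culture gave 0 to 2011 genes and 0 to 6 members. Between untreated constructs 44 genes passed with DESeq2 and 37 without a filter, and leaving out 1 gave 0 to 30. Between clones 11 members and 1177 genes passed with DESeq2, 10 and 1048 without a filter, and 2 members with the stricter filter. Leaving out 1 clone gave 4 to 7 members and 561 to 2541 genes. Between times 4 members and 557 genes passed with DESeq2 and 5 and 1322 without the DOX term, and leaving out 1 library gave 0 to 5 members and 247 to 1470 genes. Depth limits Aldoc, Eno2, Ldhb and P4ha2.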
